A study of Mus musculus with 62 samples.

Results

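The expression of 10 genes of fatty acid carriage and lipid droplet storage was followed in CD11b+ cells of the mouse brain by RNA-seq. They were listed by name and found by matching the count matrix's identifiers to gene symbols, which gave 10 of 10 genes among 53801 identifiers. By role they were the droplet coat proteins Plin2 and Plin3, the fatty acid carriers Fabp5 and Fabp3, the fatty acid receptor Cd36, the sterol esterifying enzyme Soat1, the triglyceride synthases Dgat1 and Dgat2, the triglyceride lipase Pnpla2 and its inhibitor Hilpda. All 10 passed the filter on low counts that left 19865 genes to test.

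The study crossed the APP/PS1 transgenes, a mouse model of amyloid deposition, with deletion of the inflammasome gene Nlrp3. CD11b, the cell surface marker in the samples' description, is carried by microglia and by other myeloid cells. The 62 libraries fell into 16 groups of 3 to 5: wild-type (WT) mice, mice with APP/PS1 alone, NLRP3-/- mice and mice with both (APP/PS1.NLRP3-/-), each at 4, 6 and 12 months of age, and the same 4 genotypes at 12 months with the tag Mxo4 in their titles, whose meaning the labels do not give. The labels name no promoter for the transgenes and do not say that each library came from a separate animal, so p-values measure the spread between libraries, which may in part be technical.

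Lipid droplets are stores of triglyceride and sterol ester bounded by a single layer of phospholipid. Cells take up fatty acids and sterols, pass them between membranes on small cytosolic fatty acid binding proteins, and esterify them for storage: DGAT enzymes make triglyceride and SOAT1 makes cholesteryl ester. Perilipins coat the droplet, PNPLA2 (also called ATGL) opens its triglyceride for use, and HILPDA, a small protein induced by low oxygen and by fatty acids, inhibits PNPLA2. Droplet-laden microglia and myelin- or plaque-laden phagocytes are known from the aged and diseased brain, and PLIN2 is a common marker of them.

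RefSeq promoter sequences (GRCm38.p6, 250 bases before to 50 after a transcript's start) were held for 7 of the 10 genes. No entry was held for Fabp5, Dgat1 and Dgat2. The 3 longer stretches below belong to the coat gene, the sterol esterifying gene and the lipase inhibitor that were higher with the transgenes in the results that follow, and each ends 10 bases after the annotated start. Capitals mark matches to letters searched on both strands: CACGTG (an E-box), ACGTG (the core of the oxygen-response element), AGGTCA (a nuclear receptor half-site) and TCATGTGA (an M-box, as bound by factors of the MITF family). ACGTG lies inside every CACGTG, so one place can match both.
Plin2, chr4:86670050-86670309, minus strand: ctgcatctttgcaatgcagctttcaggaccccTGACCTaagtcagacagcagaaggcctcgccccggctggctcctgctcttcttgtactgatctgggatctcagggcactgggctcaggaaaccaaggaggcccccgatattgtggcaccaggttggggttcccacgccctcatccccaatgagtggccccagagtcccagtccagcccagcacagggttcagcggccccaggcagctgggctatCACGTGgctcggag
Soat1, chr1:156474319-156474578, minus strand: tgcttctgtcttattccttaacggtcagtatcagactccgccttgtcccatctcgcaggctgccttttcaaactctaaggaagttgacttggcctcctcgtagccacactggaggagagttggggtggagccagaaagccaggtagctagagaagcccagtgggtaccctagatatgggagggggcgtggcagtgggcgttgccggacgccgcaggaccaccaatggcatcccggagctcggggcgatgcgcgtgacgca
Hilpda, chr6:29272238-29272497, plus strand: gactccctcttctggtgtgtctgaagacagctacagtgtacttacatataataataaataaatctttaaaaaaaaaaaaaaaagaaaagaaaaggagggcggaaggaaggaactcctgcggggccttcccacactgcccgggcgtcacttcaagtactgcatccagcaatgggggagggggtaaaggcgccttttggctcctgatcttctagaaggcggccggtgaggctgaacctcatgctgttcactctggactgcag
Fabp3, chr4:130308681-130308710, plus strand: ggccactttcaTCATGTGAtgcgagggcta
Hilpda, second annotated start, chr6:29272571-29272600, plus strand: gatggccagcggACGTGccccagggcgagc
The Plin2 stretch held AGGTCA, printed as its reverse complement, 218 bases before the start, and CACGTG from 4 bases before the start. Fabp3 held the M-box 46 bases before its start, and only the 30 bases around that match are shown, since that entry's start lies inside the annotated gene. The second start of Hilpda held ACGTG 43 bases before it, and Cd36 held AGGTCA 228 bases before its start. The Soat1 stretch, the first Hilpda stretch, and the Plin3 and Pnpla2 entries matched none of the letters. Of 32851 mouse promoter entries of this length, 7.15% held CACGTG, 19.6% ACGTG, 16.3% AGGTCA and 0.986% TCATGTGA. A match describes the letters only, and binding was not measured here.

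Total counts ran from 11484943 to 27604393 per library (median 18392142) apart from 3: APP/PS1 at 6 months replicate 21 with 659 counts, NLRP3-/- at 12 months replicate 45 with 1394435 and APP/PS1 at 12 months replicate 41 with 6187249. Replicate 21 stayed in the fit but in no level or count of libraries below, so that group has 3 libraries in every level. Nlrp3 itself was at 60.4 to 271 CPM in the 30 libraries with the gene and at 0 to 2.27 CPM in the 31 labelled as deleted. The library labelled APP/PS1 at 12 months with Mxo4, replicate 56, stood apart from its group. It held Fabp5, Fabp3, Plin2, Plin3, Soat1 and Hilpda within or below the range of the WT libraries of that set, and Cst7, a gene of plaque-associated microglia, at 10.9 CPM against 1650 to 2400 CPM in the other 3. Results that rest on it are given with and without it. The 10 microglial markers summed to between 34000 and 50900 CPM in every library, against 127 to 888 CPM for 7 markers of border-associated macrophages and 73.3 to 475 CPM for 7 of monocytes. In bulk libraries, fewer cells of a type and less RNA per cell cannot be told apart. By Xist and 4 Y-linked genes, the untagged WT and APP/PS1 libraries at 12 months were all female and the untagged NLRP3-/- and APP/PS1.NLRP3-/- libraries at 12 months all male, which bears on each untagged comparison of Nlrp3 at that age. At 6 months the only males were NLRP3-/- replicate 27 and APP/PS1.NLRP3-/- replicates 28, 29 and 30. The 6-month comparisons of Nlrp3, their interaction and the transgene comparison without Nlrp3 were therefore unbalanced for sex. Each Mxo4 group held both sexes, so each comparison of Mxo4 with untagged libraries was unbalanced for sex.

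Levels are given in CPM, counts relative to a library size scaled by the trimmed mean of M-values (TMM). Between genes, levels are compared per length, taken as all annotated exons of a gene merged. Merged length was 3567 bases for Fabp5 and 823 for Fabp3. It can exceed that of the transcripts present, which was not measured, so the order between genes depends on it. In WT at 4 months, for example, these 2 were at 7.48 and 1.83 CPM but near each other per length. As CPM per kilobase of annotated exon (FPKM), averaged over the 16 groups, the lipase Pnpla2 (30.4) and the coat gene Plin2 (27.9) stood highest, followed by Soat1 at 14.7, Fabp5 at 13.6, Fabp3 at 13.5, Dgat1 at 10.3 and Hilpda at 10.1. Cd36 at 6.06, Plin3 at 4.59 and Dgat2 at 2.05 FPKM were lowest. The order differed between groups. In WT at 4 months Fabp5 was at 2.1 and Fabp3 at 2.22 FPKM, among the lowest of the 10, whereas in APP/PS1 at 12 months they were at 53 and 54.7 FPKM, next to Plin2 at 63.8. Pnpla2 went from 37.4 to 25.6 FPKM between the same groups.

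The first question was what the transgenes changed at each age. At 4 months no member passed the test (edgeR quasi-likelihood F test, adjusted p under 0.05 over all genes tested, which is what "called" means below) in mice with or without Nlrp3. At an unadjusted p under 0.05 the count was also 0 in both, as it was by DESeq2. Of all genes, 0.0252% were called in APP/PS1 minus WT and 0.0101% in APP/PS1.NLRP3-/- minus NLRP3-/- at that age. At 6 months 4 of 10 members were called with Nlrp3 present (3.07% of all genes) and 5 of 10 without it (8.14%), all of them higher. At 12 months 7 were called with Nlrp3 present (18.1%), 6 higher and Pnpla2 lower, and 5 without it, all higher (8.73%). In the Mxo4 libraries 4 were called with Nlrp3 present (5.10%) and 4 without it (5.19%), all higher. Fabp5, Fabp3, Plin2 and Soat1 were called in each of these 6 comparisons at 6 and 12 months. Hilpda was called in 3, Plin3 and Pnpla2 in 1 each, and Cd36, Dgat1 and Dgat2 in none. The median log2 difference over the 10 members at 12 months with Nlrp3 present was 0.972, beside -0.075 over all genes tested, and without Nlrp3 it was 0.557 beside -0.049. The comparisons with and without Nlrp3 share no libraries. Other signals moved with the transgenes at 12 months: the summed endothelial markers were at 471 to 729 CPM in WT and 329 to 503 CPM in APP/PS1, and 10 genes that respond to cell handling summed to 18700 to 19000 CPM against 13300 to 18900 CPM. Without Nlrp3 those sums were 123 to 271 against 113 to 235 CPM and 10600 to 14100 against 6980 to 10600 CPM. At 6 months the endothelial sum was 560 to 1560 CPM in WT and 339 to 754 CPM in APP/PS1. The handling sum at that age was 12700 to 22400 against 9280 to 10200 CPM, without overlap. Without Nlrp3 at 6 months the sums were 636 to 1260 against 238 to 714 CPM and 11100 to 15400 against 7160 to 19400 CPM. The part of these signals in the differences was not tested at either age.

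**Figure D1:**
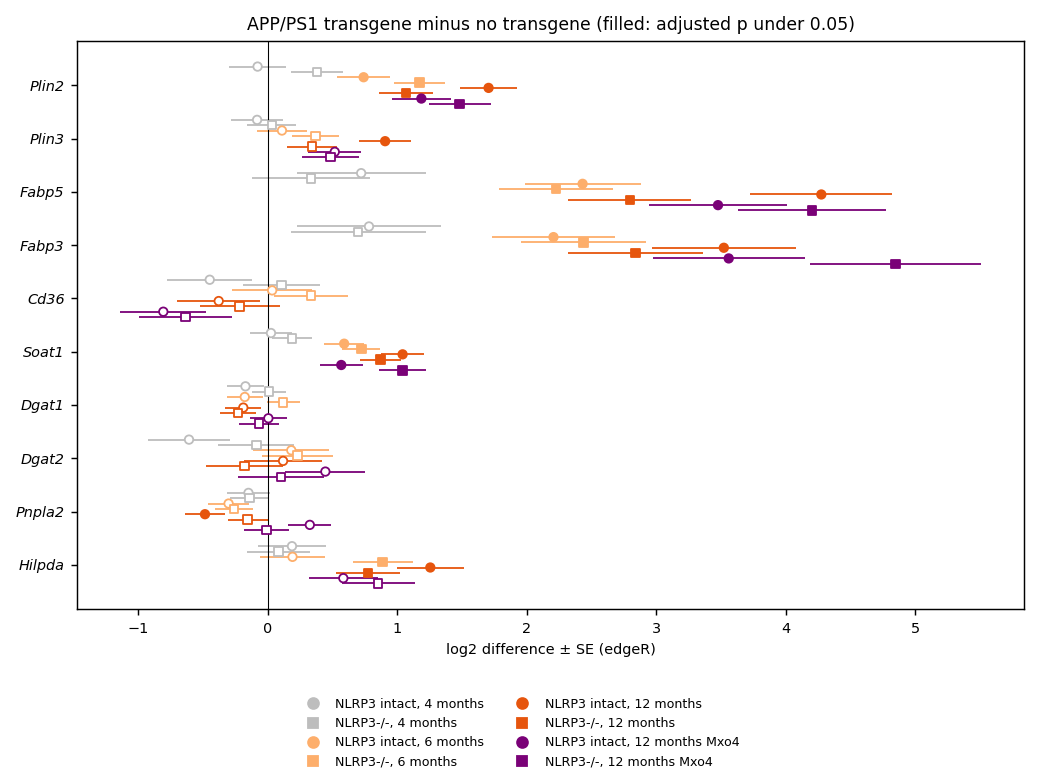
Log2 difference (x axis, edgeR, with its standard error) between libraries with and without the APP/PS1 transgenes for each of the 10 genes (y axis), by age, tag and Nlrp3 state; filled symbols passed an adjusted p of 0.05. Fabp5 and Fabp3 reach log2 differences of 4.27 and 4.85, the coat gene Plin2 stays under 2, and no symbol at 4 months is filled.

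The 2 carriers moved most. Fabp5, the epidermal-type fatty acid binding protein expressed in many cells including macrophages (chr3:10012548-10016607, plus strand), was at 9.48, 8.61 and 11.1 CPM in the 3 WT libraries at 12 months. In the 5 APP/PS1 libraries at that age it was at 81.9, 91.0, 136, 266 and 370 CPM. The groups did not overlap, and the APP/PS1 libraries themselves spread over more than a factor of 4. The difference was 4.27 ± 0.55 on the log2 scale (standard error, adjusted p = 9.2e-08), a fold of 19.3. Without Nlrp3 it went from 8.72, 8.84, 14.5 and 28.2 CPM to 101, 111, 122 and 128 CPM, a difference of 2.79 ± 0.48 (adjusted p = 4.7e-05). Here the transgenic libraries lay close together and the spread was in the NLRP3-/- libraries, where replicate 47 held the 28.2 CPM. That library also had the highest summed astrocyte (940 CPM), oligodendrocyte (988 CPM) and neuron (798 CPM) markers of all libraries read. Their part was not tested.

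At 6 months the same gene was at 39.8, 44.1 and 53.5 CPM in APP/PS1 against 6.40 to 11.6 CPM (median 7.98) in 5 WT libraries, a log2 difference of 2.43 ± 0.45 (adjusted p = 0.00042). Without Nlrp3 the values were 31.5, 40.6, 57.2, 57.8 and 77.9 CPM against 7.00, 9.72, 12.2 and 16.7 CPM, a difference of 2.22 ± 0.44 (adjusted p = 0.0004). All 8 transgenic libraries read at 6 months stood above all 9 without the transgenes. At 4 months the 7 transgenic libraries ran from 8.79 to 15.9 CPM and the 8 others from 6.16 to 12.4 CPM, so the ranges overlapped.

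Fabp3, the heart-type carrier (chr4:130308595-130315463, plus strand), started lower. It was at 3.17, 3.96 and 4.58 CPM in WT at 12 months and at 22, 30, 41.9, 62.9 and 68.5 CPM in APP/PS1, a log2 difference of 3.52 ± 0.56 (adjusted p = 4.2e-06). In NLRP3-/- at 12 months it was at 0, 0.975, 4.16 and 6.28 CPM, and in APP/PS1.NLRP3-/- at 18.3, 23.9, 27.3 and 30.9 CPM, a difference of 2.84 ± 0.52 (adjusted p = 0.00013). In neither pair did the groups overlap. The 0 belongs to replicate 45, whose shallow depth allows up to 2.18 CPM (3 counts, counting error only). The 6.28 CPM belongs to replicate 47. At 6 months Fabp3 was at 12.4, 12.5 and 13.3 CPM in APP/PS1 and 1.73 to 3.50 CPM in WT (log2 difference 2.21 ± 0.48, adjusted p = 0.00365), and at 7.13, 13.7, 14.2, 20.3 and 22.3 CPM in APP/PS1.NLRP3-/- against 1.42, 2.41, 3.47 and 4.14 CPM in NLRP3-/- (2.44 ± 0.48, adjusted p = 0.00036). All 8 transgenic libraries read at 6 months and all 9 at 12 months lay above every library without the transgenes of the same age. At 4 months Fabp3 was at 1.06 to 2.31 CPM in WT and 2.52, 3.01 and 4.05 CPM in APP/PS1, without overlap but not called. Without Nlrp3 the 4-month ranges overlapped, at 0.788 to 3.32 CPM in NLRP3-/- and 2.36 to 3.53 CPM in APP/PS1.NLRP3-/-. With a further term for the number in first place in the titles (8 values), the 6-month difference with Nlrp3 present was 2.02 and its adjusted p 0.0917.

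The library kit does not mark strand, and Zcchc17, a gene on the opposite strand, overlaps the annotated Fabp3 gene. Zcchc17 was at 24.4 ± 3.85 CPM (SD, n = 3) in WT and 34.1 ± 6.87 CPM (n = 5) in APP/PS1 at 12 months, a change far smaller than that of Fabp3, and reads of the shared stretch cannot be told apart. The near-identical copies Fabp3-ps1 and Fabp5l2 reached at most 0.192 and 0.421 CPM in any library.

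Among the coat genes, Plin2 (chr4:86648386-86670060, minus strand), the perilipin that coats droplets in most cell types, was the gene with the clearer change. In WT at 12 months it was at 62.3, 65.1 and 80.2 CPM and in APP/PS1 at 137, 204, 246, 262 and 271 CPM. The groups did not overlap, and the log2 difference was 1.70 ± 0.22 (adjusted p = 1.4e-07). Without Nlrp3 the values went from 45.7, 51.6, 54 and 80.0 CPM to 109, 123, 128 and 131 CPM, a difference of 1.07 ± 0.21 (adjusted p = 0.00035). Again every transgenic library lay above every other, but the highest of the 4, at 131 CPM, was below the lowest of APP/PS1.

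At 6 months Plin2 was at 87.2, 107 and 134 CPM in APP/PS1, and the 5 WT libraries ran from 59.7 to 74.8 CPM with a median of 62.3. The groups did not overlap, with a log2 difference of 0.74 ± 0.20 (adjusted p = 0.0318). With a term for the first title number (8 values) the difference was 0.57 and was not called (adjusted p = 0.334). The call also ended, with an adjusted p between 0.0645 and 0.231 and a difference between 0.57 and 0.76, when any 1 of APP/PS1 replicates 23 and 24 or WT replicates 17, 18 and 20 was left out. Without Nlrp3 the difference was larger: 98.9, 114, 125, 141 and 155 CPM stood against 50.9, 54.4, 57.7 and 61.7 CPM, a difference of 1.17 ± 0.20 (adjusted p = 3.2e-05). Whether the 2 differences themselves differed was tested as an interaction and was not called (0.43 ± 0.28, adjusted p = 0.774).

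Plin3 (chr17:56277476-56292873, minus strand), a perilipin that also occurs free in the cytosol, was called once. At 12 months it was at 14, 14.5 and 18.2 CPM in WT and at 22.3, 26.7, 27.9, 34.7 and 36.9 CPM in APP/PS1, without overlap (log2 difference 0.90 ± 0.20, adjusted p = 0.00068). In all other groups its mean lay between 13.3 and 20 CPM. The 4 APP/PS1.NLRP3-/- libraries at 12 months were at 9.98, 17.6, 19.3 and 20 CPM against 11.6 to 15.6 CPM in NLRP3-/-. The step from 20 CPM (APP/PS1 with Mxo4) up to APP/PS1 at 12 months was the one gap between neighbours in the order of its 16 group means that exceeded the larger SD of the pair.

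Soat1 (chr1:156424525-156474331, minus strand), which esterifies cholesterol for storage, rose less in fold but with little spread. At 12 months it was at 102, 113 and 116 CPM in WT and 190, 204, 204, 230 and 309 CPM in APP/PS1, a log2 difference of 1.04 ± 0.16 (adjusted p = 4.1e-06). Without Nlrp3 the levels were 85.0, 98.7, 118 and 122 CPM against 170, 193, 194 and 212 CPM, a difference of 0.87 ± 0.16 (adjusted p = 0.0001). In both pairs the groups were apart. At 6 months APP/PS1 libraries were at 139, 146 and 182 CPM and WT at 93.7 to 116 CPM (median 96.9), a difference of 0.59 ± 0.16 (adjusted p = 0.0231). Leaving out any 1 of APP/PS1 replicates 22 and 24 or WT replicates 17, 18 and 20 ended this call, with adjusted p from 0.0531 to 0.2, as did a term for the first title number (0.50, adjusted p = 0.231). Without Nlrp3 at 6 months it was 155, 169, 173, 178 and 194 CPM against 101, 101, 108 and 113 CPM (0.72 ± 0.15, adjusted p = 0.00056), and no single library ended that call. All 8 transgenic libraries read at 6 months and all 9 at 12 months stood above every library without the transgenes of that age. Gm37648, a transcript model within Soat1, reached at most 5.06 CPM in any library.

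**Figure D2:**
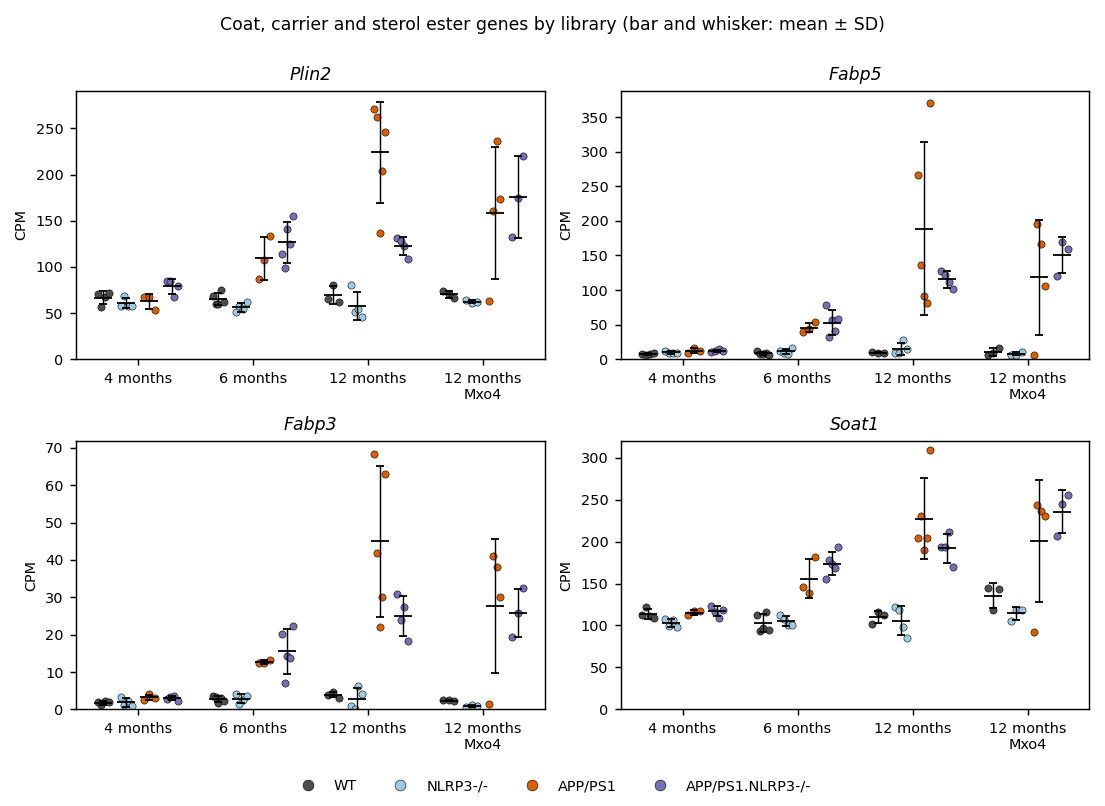
CPM (y axis) of Plin2, Fabp5, Fabp3 and Soat1 in each library (points) with group mean and SD, for 4 genotypes at 4, 6 and 12 months and in the Mxo4 set (x axis). In the 4-month set the pooled ranges with and without the transgenes overlap for each gene. Single pairs can be apart there: Fabp3 in WT (to 2.31 CPM) and APP/PS1 (from 2.52), and Soat1 in NLRP3-/- (to 108) and APP/PS1.NLRP3-/- (from 109). At 12 months all 9 transgenic libraries lie above the 7 others. The low APP/PS1 point in the Mxo4 set is replicate 56.

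At 12 months with Nlrp3 present the triglyceride lipase was lower and its inhibitor higher. Hilpda (chr6:29272488-29275446, plus strand), the lipase inhibitor, was at 8.48, 8.80 and 10.6 CPM in WT at 12 months and at 10.0, 20.7, 22.5, 28.4 and 30.6 CPM in APP/PS1. Replicate 37, at 10.0 CPM, fell within the WT range and the other 4 lay above it. The log2 difference was 1.25 ± 0.26 (adjusted p = 0.00032). At 6 months Hilpda was called without Nlrp3, at 10.4, 14.4, 16.8, 17.6 and 22.2 CPM against 6.49, 9.23, 9.69 and 9.79 CPM (0.89 ± 0.23, adjusted p = 0.00884), while with Nlrp3 present it was at 7.68, 9.35 and 11.1 CPM against 6.31 to 9.79 CPM and was not called (adjusted p of the interaction 0.655). The call without Nlrp3 at 6 months ended when APP/PS1.NLRP3-/- replicate 30 (adjusted p = 0.0619) or NLRP3-/- replicate 26 (0.0561) was left out. At 12 months without Nlrp3 it was at 12.1, 13.6, 15.2 and 16 CPM against 2.18, 9.18, 9.19 and 9.45 CPM, where the low value is the shallow replicate 45 (3 counts). That difference of 0.77 ± 0.25 (adjusted p = 0.0406) was 0.62 with an adjusted p of 0.116 without replicate 45. It was also lost, with adjusted p from 0.0507 to 0.112, when any 1 of APP/PS1.NLRP3-/- replicates 43, 46 and 49 or NLRP3-/- replicates 47 and 48 was left out.

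Pnpla2 (chr7:141455198-141460743, plus strand), the main triglyceride lipase of droplets, was the only member called lower with the transgenes when all libraries were in the fit. It was at 94.4, 95.2 and 124 CPM in WT at 12 months and at 54.7, 70.1, 77.9, 86.8 and 97.6 CPM in APP/PS1, ranges that overlapped, with a log2 difference of -0.49 ± 0.16 (adjusted p = 0.0231). Without APP/PS1 replicate 41, the shallow library with the lowest value, the difference was -0.43 and the adjusted p 0.0679, and without WT replicate 39, with the highest, -0.32 and 0.23. Without Nlrp3 at 12 months the difference was -0.16 and was not called. Pnpla2 was lower without Nlrp3 in all 6 untagged comparisons, by 0.16 to 0.49 on the log2 scale, and none of these passed the adjusted test (smallest adjusted p 0.12, NLRP3-/- minus WT at 12 months). In NLRP3-/- at 4 months, for example, it was at 78.2, 79.3, 85.6 and 95.8 CPM against 90.5, 104, 128 and 130 CPM in WT.

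The triglyceride synthases stayed near their control levels. Dgat1 (chr15:76502015-76511953, minus strand) was called in none of the 28 comparisons, and its group means ran from 26.8 to 35.4 CPM over the 16 groups. Dgat2 (chr7:99153658-99182719, minus strand) was low throughout, with group means from 3.61 to 9.09 CPM, and was called in no comparison of the transgenes. For neither gene did any gap between neighbours in the order of the 16 group means exceed the larger SD of the pair. Neither enzyme was called in any of the comparisons in which Plin2 and the carriers rose with the transgenes.

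**Figure D3:**
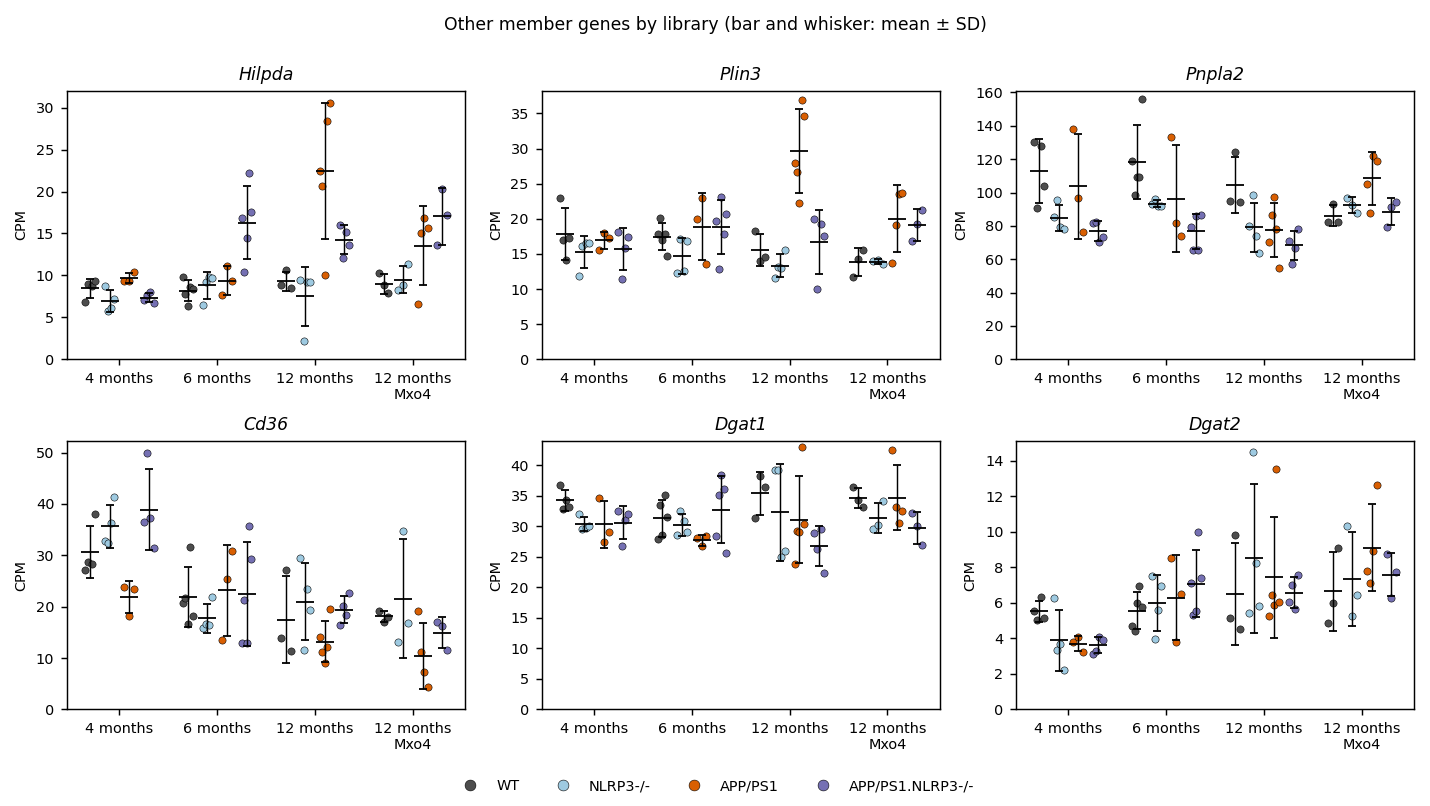
CPM (y axis) of Hilpda, Plin3, Pnpla2, Cd36, Dgat1 and Dgat2 in each library (points) with group mean and SD, for 4 genotypes at 3 ages and in the Mxo4 set (x axis). Hilpda and Plin3 stand highest in APP/PS1 at 12 months, with means of 22.4 and 29.7 CPM, the 3 highest Cd36 means are of 4-month groups, and Dgat1 means stay between 26.8 and 35.4 CPM.

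Cd36 (chr5:17781690-17888801, minus strand), a scavenger receptor that takes up fatty acids and oxidised lipoproteins and is also expressed by endothelium and macrophages, followed another pattern. Its 3 highest group means were at 4 months: 38.8 ± 7.85 CPM in APP/PS1.NLRP3-/- (SD, n = 4), 35.7 ± 4.15 in NLRP3-/- (n = 4) and 30.6 ± 5.06 in WT (n = 4). The lowest were 10.5 CPM in APP/PS1 with Mxo4 and 13.2 CPM in APP/PS1 at 12 months. With all libraries in the fit, no transgene comparison was called for Cd36. Without replicate 56 it was called lower in APP/PS1 minus WT with Mxo4 (-1.24 ± 0.35, adjusted p = 0.0112). Over the 16 group means of log2(CPM + 1), the gene with the profile most like that of Cd36 among 10166 compared was Mrc1 (Pearson r = 0.94), a marker of border-associated macrophages, followed by Ccl24 (0.89) and F13a1 (0.88), a marker of monocytes and macrophages. Against the summed CPM of all 7 border-associated macrophage markers, the group means of Cd36 gave r = 0.93, against 7 monocyte markers 0.80, against 6 oligodendrocyte markers 0.62, against 10 microglial markers 0.49 and against 8 endothelial markers 0.07. These correlations are over 16 group means, whose libraries were scaled together, and are given as a description. None of the 7 macrophage markers was at 0 in any library read. Their part in the level of Cd36 was not tested.

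**Figure D4:**
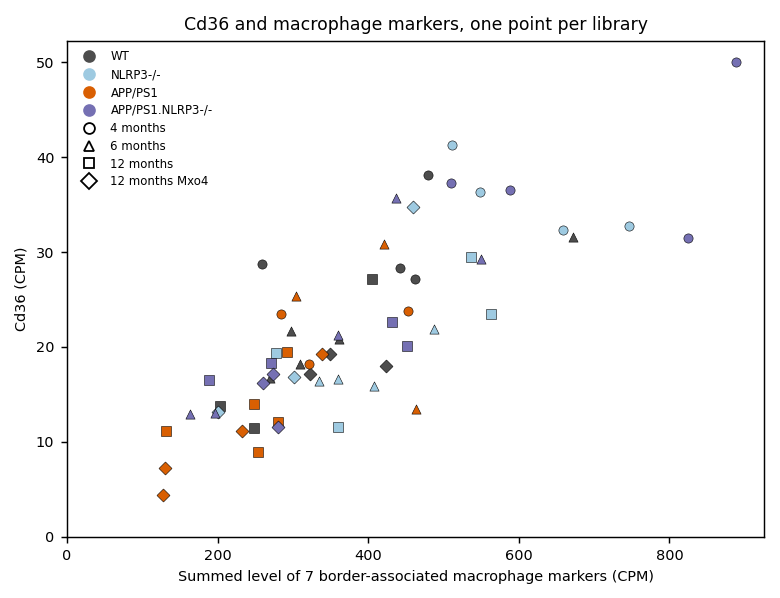
Cd36 (y axis, CPM) against the summed level of 7 border-associated macrophage markers (x axis, CPM), 1 point per library, coloured by genotype and shaped by age and tag. The libraries whose markers sum to 510 CPM or more hold Cd36 at 23.5 CPM or more, and the lowest Cd36 value, 4.39 CPM, belongs to a library with one of the lowest marker sums.

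Libraries carry 1 of 2 numbers in second place in their titles, and the labels do not tie these numbers to the 2 batches in which libraries were made. The fit holds a term for that number, and the comparisons were also refitted within each number. Within number 1 alone and number 2 alone, the 12-month differences with Nlrp3 present were 3.59 and 4.95 for Fabp5 and 1.70 and 1.84 for Plin2, all 4 called. Those of Hilpda (1.22 and 1.44) and Plin3 (0.98 and 0.96) missed the threshold within number 1 (adjusted p = 0.182 and 0.0814). Pnpla2 differed by -0.11 within number 1 (adjusted p = 0.921) and by -0.80 within number 2 (0.00136). At 6 months with Nlrp3 present, number 1 alone gave 0.33 for Plin2 (adjusted p = 0.777), 0.44 for Soat1 (0.615) and 2.23 for Fabp3 (0.16), while number 2 alone gave 0.93, 0.66 and 2.17, all called. Without Nlrp3 at 12 months Plin2 was 1.20 and 0.72 higher, the latter not called (0.213), and Soat1 0.94 and 0.70 (0.0804 for the latter). Hilpda without Nlrp3 was called within neither number at 6 months (1.03 and 0.78) or 12 months (0.85 and 0.60). Several of these fits hold an arm of 1 library, which is assumed to vary like the other groups: WT at 12 months has 1 library of number 1 (replicate 40), NLRP3-/- at 12 months has 1 of number 2 (replicate 42), and APP/PS1 at 6 months has replicate 22 and the library of 659 counts in number 1. With a term for the first title number, which has 8 values, the calls of Pnpla2 at 12 months with Nlrp3 present (-0.48, adjusted p = 0.0745), Hilpda at 12 months without it (0.82, 0.0571) and Soat1 in APP/PS1 minus WT with Mxo4 (0.51, 0.11) were lost.

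The second question was what loss of Nlrp3 changed. In NLRP3-/- minus WT no member was called at 4 months (0.398% of all genes called), 6 months (0.488%), 12 months (1.59%) or with Mxo4 (0.101%). Each of these had 1 member at an unadjusted p under 0.05, and DESeq2 called 0 in each. With the transgenes, no member was called at 4 months (0.237%), 6 months (0.508%) or with Mxo4 (0.337%), where 2, 2 and 0 members had an unadjusted p under 0.05 and DESeq2 called 0. Without replicate 56 the Mxo4 pair again had 0 called by edgeR, with 1 at an unadjusted p under 0.05 (0.347% of all genes called). At 12 months 2 of 10 members were called (6.18%), both coat genes and both lower without Nlrp3, while DESeq2 called 3. Plin2 was at 109 to 131 CPM in the 4 APP/PS1.NLRP3-/- libraries against 137 to 271 CPM in the 5 APP/PS1 libraries, a log2 difference of -0.87 ± 0.19 (adjusted p = 0.00622). Plin3 was at 9.98 to 20 CPM against 22.3 to 36.9 CPM, a difference of -0.82 ± 0.18 (adjusted p = 0.006). For both, all 4 libraries lay below all 5.

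Other signals differed in the same pair without overlap. Summed over 10 genes that respond to cell handling, the level was 13300 to 18900 CPM in APP/PS1 and 6980 to 10600 CPM in APP/PS1.NLRP3-/-, and 8 endothelial markers summed to 329 to 503 CPM against 113 to 235 CPM. Their part in the 2 Plin differences was not tested.

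These 2 calls stand where sex and Nlrp3 state coincide, since the 5 APP/PS1 libraries were female and the 4 APP/PS1.NLRP3-/- libraries male, so that within this pair the 2 cannot be told apart. With a sex term, estimated from the other groups, the difference was -0.63 for Plin2 (adjusted p = 0.167) and -0.74 for Plin3 (0.0828), and neither was called. Within second title number 1 the Plin2 difference was -0.81 (adjusted p = 0.121) and within number 2 -0.99 (0.00476), and for Plin3 they were -0.64 (0.245) and -1.04 (0.0297). Without APP/PS1.NLRP3-/- replicate 44, which held the 9.98 CPM, the Plin3 difference was -0.64 (adjusted p = 0.0555). In the Mxo4 libraries, where both sexes occurred in each group, the Plin2 difference for the same pair of genotypes was 0.11 ± 0.23 and that of Plin3 -0.0004 ± 0.21. Without replicate 56 they were -0.23 ± 0.19 (adjusted p = 0.868) and -0.16 ± 0.22 (0.945), so the sign of the Plin2 value rests on that library. The APP/PS1 libraries then left all carry second title number 1 and the APP/PS1.NLRP3-/- libraries all number 2. Within this pair that number and Nlrp3 state then cannot be told apart, and the term for the number is estimated from other groups.

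Fabp5 (-0.69 ± 0.41), Fabp3 (-0.83 ± 0.43) and Hilpda (-0.65 ± 0.23, adjusted p = 0.0752) were also lower in APP/PS1.NLRP3-/- than in APP/PS1 at 12 months without passing the test. Whether the transgene difference depended on Nlrp3 was tested as an interaction, and no member was called at 4 months (0% of all genes called), 6 months (0.0201%), 12 months (0.00503%) or with Mxo4 (0%). The members at an unadjusted p under 0.05 numbered 0, 1, 3 and 0, and DESeq2 called 0 in each. At 12 months the 3 were Fabp5 (-1.48 ± 0.65, adjusted p = 0.429), Plin2 (-0.64 ± 0.30, 0.459) and Plin3 (-0.56 ± 0.28, 0.493), each with the smaller transgene difference in mice without Nlrp3. At 6 months it was Hilpda, with the larger difference in mice without Nlrp3 (0.70 ± 0.34, adjusted p = 0.655).

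**Figure D5:**
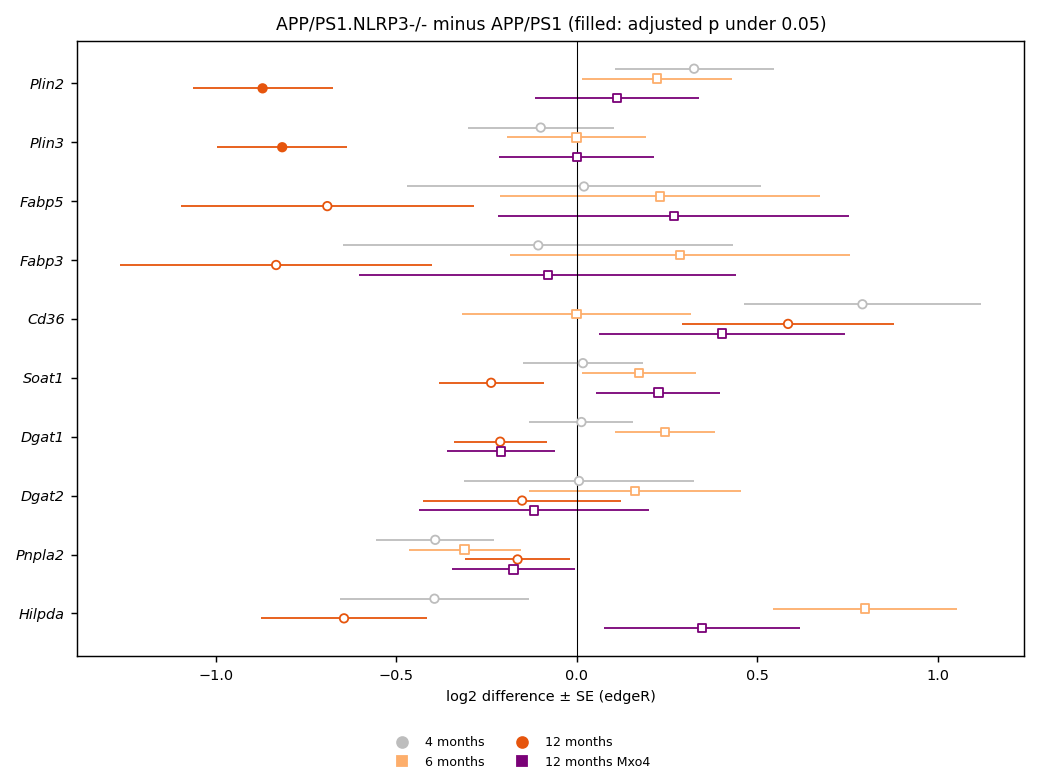
Log2 difference (x axis, edgeR, with its standard error) between APP/PS1.NLRP3-/- and APP/PS1 libraries for the 10 genes (y axis) at 3 ages and in the Mxo4 set. The 12-month values of Plin2 (-0.87) and Plin3 (-0.82) are the 2 that passed the test, and the values of the Mxo4 set for those genes are 0.11 and -0.0004 with replicate 56 included, against -0.23 and -0.16 without it.

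Age was compared within each genotype as 12 minus 4 months. No member was called in WT (0.0302% of all genes) or NLRP3-/- (0.448%), where 1 and 2 members had an unadjusted p under 0.05 and DESeq2 called 0. In APP/PS1 7 members were called (22.4%), all higher at 12 months: Fabp5 (3.91 ± 0.54), Fabp3 (3.82 ± 0.57), Plin2 (1.83 ± 0.22), Hilpda (1.20 ± 0.26), Dgat2 (1.02 ± 0.31), Soat1 (0.97 ± 0.16) and Plin3 (0.81 ± 0.20). In APP/PS1.NLRP3-/- 7 were called (12.1%), 6 higher and Cd36 lower. The carriers again led, with Fabp5 at 3.20 ± 0.47 and Fabp3 at 3.09 ± 0.50, and Hilpda (0.95 ± 0.24), Dgat2 (0.86 ± 0.29), Soat1 (0.72 ± 0.15) and Plin2 (0.64 ± 0.20) followed. With a term for the first title number, the calls of Dgat2 in APP/PS1 (0.85, adjusted p = 0.069) and of Plin2 (0.54, 0.128), Cd36 (-0.87, 0.0723) and Dgat2 (0.86, 0.0701) in APP/PS1.NLRP3-/- were lost. In NLRP3-/- and in APP/PS1.NLRP3-/- all 4 libraries at 12 months were male and all 4 at 4 months female, so age and sex coincide there. Whether the changes with age differed between APP/PS1 and APP/PS1.NLRP3-/- was not tested.

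Several of these calls rest on single libraries. The rise of Dgat2 in APP/PS1 went from 3.23, 3.80 and 4.05 CPM to 5.27, 5.89, 6.07, 6.42 and 13.5 CPM. The 13.5 CPM is replicate 38, in which 7 neutrophil markers summed to 2760 CPM, against 47.9 CPM in the lowest and a median of 81.4 CPM over the group, and their part was not tested. Without it the difference was 0.70 and the adjusted p 0.0923, and without APP/PS1 replicate 6 at 4 months 0.0524. In APP/PS1.NLRP3-/- the Dgat2 call (adjusted p = 0.0425) was lost without any 1 of replicates 43, 44 and 49 at 12 months or 9, 11 and 14 at 4 months (adjusted p from 0.075 to 0.13). The Plin2 call in that genotype (adjusted p = 0.0286) was lost without any 1 of replicates 43, 44 and 46 at 12 months or 13 and 14 at 4 months (0.0553 to 0.0987).

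Cd36 in APP/PS1.NLRP3-/- was at 31.5, 36.5, 37.3 and 50 CPM at 4 months and 16.5, 18.3, 20.1 and 22.6 CPM at 12 months, without overlap (log2 difference -0.99 ± 0.30, adjusted p = 0.0227). The border-associated macrophage markers summed to 510 to 888 CPM in the same 4-month libraries and 188 to 451 CPM at 12 months, and their part in this fall was not tested. The call was lost without replicate 43 (adjusted p = 0.0872), 44 (0.0551) or 11 (0.0755). In the other 3 genotypes the age difference of Cd36 was also below 0, at -0.85 in WT, -0.67 in NLRP3-/- and -0.78 in APP/PS1, none of them called.

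In the Mxo4 libraries the carriers again differed most with the transgenes. Fabp3 was at 0.715, 0.829 and 1.11 CPM in NLRP3-/- (11, 12 and 21 counts) and at 19.5, 25.7 and 32.4 CPM in APP/PS1.NLRP3-/-, a log2 difference of 4.85 ± 0.66 (adjusted p = 1.6e-06). Fabp5 went from 6.62, 6.89 and 10.6 CPM to 121, 160 and 170 CPM (4.20 ± 0.57, adjusted p = 1.4e-06). Plin2 went from 60.9, 61.7 and 64.3 CPM to 132, 175 and 220 CPM (1.48 ± 0.24, adjusted p = 2.6e-05). None of these groups overlapped. Soat1 was higher too, at 207, 245 and 255 CPM against 105, 119 and 119 CPM (1.04 ± 0.18, adjusted p = 7.1e-05). The APP/PS1.NLRP3-/- libraries of this set all carry the same second title number.

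With Nlrp3 present, the library labelled replicate 56 decided several values. Fabp5 was at 106, 166 and 195 CPM in 3 APP/PS1 libraries and at 6.43 CPM in replicate 56, against 6.18, 9.35 and 16.1 CPM in WT. Fabp3 was at 30.1, 38 and 41.1 CPM and at 1.49 CPM in replicate 56, against 2.19 to 2.42 CPM in WT. Plin2 was at 161, 174 and 236 CPM and at 63.6 CPM in replicate 56, against 66.4 to 73.5 CPM in WT. In each case replicate 56 lay at or below the WT range and the other 3 far above it. Soat1 was at 230, 237 and 244 CPM and at 92.5 CPM in replicate 56, against 119, 143 and 145 CPM in WT.

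With all 4 libraries the log2 differences were 3.48 ± 0.54 for Fabp5 (adjusted p = 1.6e-05), 3.56 ± 0.59 for Fabp3 (6.1e-05), 1.18 ± 0.23 for Plin2 (0.00047) and 0.57 ± 0.17 for Soat1 (0.0334). Without replicate 56 they were 3.90, 4.00, 1.48 and 0.83, and 7 members were called in place of 4, with 12.7% of all genes called in place of 5.10%. The further 3 were Hilpda (0.83 ± 0.26, adjusted p = 0.0247), Plin3 (0.66 ± 0.21, 0.0308) and Cd36, which was lower (-1.24 ± 0.35, 0.0112). Cd36 was then at 4.39, 7.25 and 11.1 CPM against 17.1, 18 and 19.2 CPM in WT, while the border-associated macrophage markers summed to 127, 130 and 232 CPM in those 3 APP/PS1 libraries and 323, 349 and 423 CPM in WT, and their part was not tested. The Soat1 call with all libraries was lost when any 1 of the other libraries in the pair was left out (adjusted p from 0.0695 to 0.185). With only the 2 groups in the fit, replicate 56 included, none of the 4 calls was made: Fabp5 was at 2.81 (adjusted p = 0.102), Fabp3 at 3.0 (0.122), Plin2 at 0.99 (0.171) and Soat1 at 0.42 (0.466).

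Comparing Mxo4 with untagged libraries of the same genotype at 12 months, no member was called in WT (0.227% of all genes), NLRP3-/- (6.85%) or APP/PS1.NLRP3-/- (1.18%). The members at an unadjusted p under 0.05 numbered 0, 2 and 2, and DESeq2 called 0, 1 and 0. The 1 was Fabp3 in NLRP3-/-, at 0.715 to 1.11 CPM with the tag and 0 to 6.28 CPM without it, whose edgeR difference was -1.97 ± 0.65 with an adjusted p of 0.0524. In APP/PS1 3 members were called (6.49%): Hilpda (-0.72 ± 0.23, adjusted p = 0.0483) and Plin3 (-0.58 ± 0.18, 0.0415) lower with the tag, and Pnpla2 higher (0.47 ± 0.14, 0.0415). The handling genes summed to 13300 to 18900 CPM (median 16600) in untagged APP/PS1 and 15000 to 30300 CPM (median 25200) with the tag, and the endothelial markers to 329 to 503 CPM against 121 to 242 CPM, and their part was not tested. In NLRP3-/- the handling genes were at medians of 12300 CPM without and 28800 CPM with the tag. Without replicate 56 none of the 3 was called (adjusted p 0.258, 0.196 and 0.11), and leaving out replicates 35, 38, 41 or 59 one at a time also left none. Sex differed in this pair too, with untagged APP/PS1 libraries all female and Mxo4 replicates 56, 57 and 59 male. With a sex term none of the 3 was called (adjusted p 0.218 for Hilpda, 0.145 for Plin3 and 0.0739 for Pnpla2).

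The order of the 16 group means set the 6 transgenic groups of 6 and 12 months at the top for Plin2, Fabp5, Fabp3 and Soat1. For Fabp5 the step from the highest of the other 10 groups (NLRP3-/- at 12 months, 15.1 ± 9.16 CPM, n = 4) to the lowest of these 6 (APP/PS1 at 6 months, 45.8 CPM) was over the larger SD of the pair, as was the step from 53 CPM in APP/PS1.NLRP3-/- at 6 months to 115 CPM in the same genotype at 12 months. Fabp3 showed the same 2 steps, from 3.91 to 12.8 CPM and from 15.5 to 25.1 CPM, and 1 more at the bottom, where NLRP3-/- with Mxo4 (0.885 CPM) lay below WT at 4 months (1.83 CPM). For Plin2 the steps on either side of APP/PS1.NLRP3-/- at 4 months (78.9 ± 8.23 CPM, n = 4) exceeded the SD, the upper one leading to 110 CPM in APP/PS1 at 6 months. The other 12 to 13 gaps of each of these genes did not exceed the SD. This concerns neighbours only, and groups farther apart in the order can differ by more than their SD. For Hilpda, Pnpla2, Dgat1 and Dgat2 no gap did.

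Across those group means of log2(CPM + 1) the carriers, Plin2 and Soat1 formed one profile. Pearson's r was 0.98 between Fabp5 and Fabp3, 0.97 between Plin2 and Soat1 and 0.96 between Plin2 and each carrier, and Hilpda stood at 0.91 with Plin2 and Soat1. Pnpla2 and Dgat1 were below 0 against all of these. Among all genes compared, the closest to Fabp5 was Apoe (0.99), the main apolipoprotein of the brain, and the closest to Fabp3 were Tmem163 (0.98), Fabp5 and the transcription factor Bhlhe40 (0.98). Soat1 was closest to Cd274 (0.99), which encodes the checkpoint ligand PD-L1, and to the lysosomal fucosidase Fuca1 (0.98), Hilpda to the ceramide enzyme Degs1 (0.95) and Plin2 to Spryd7 (0.98). These values rest on 16 group means and say nothing of shared control.

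The wider lipid lists held 91 genes in 8 groups. At 12 months with Nlrp3 present, where 18.1% of all genes were called, none of 3 other coat genes tested, 2 of 5 droplet assembly genes and 1 of 11 other synthesis genes were called higher, while 1 synthesis gene was lower. Of 17 fatty acid oxidation genes 1 was called higher and none lower, with a list median of 0.053 on the log2 scale beside -0.075 over all genes. Without Nlrp3, where 8.73% of all genes were called, the same list had 1 lower and none higher.

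Among the lipolysis genes other than members, 3 of 8 were higher and 2 lower at 12 months with Nlrp3 present, beside 18.1% of all genes called in either direction, and the leading 2 act on sterol esters. Nceh1, which hydrolyses neutral cholesteryl ester and so opposes Soat1, was called higher in all 6 comparisons at 6 and 12 months, from 28.9 ± 4.31 CPM in WT (SD, n = 3) to 189 ± 42 CPM in APP/PS1 (n = 5) at 12 months (log2 difference 2.74 ± 0.31, adjusted p = 1.1e-08). Lipa, the lysosomal acid lipase, was called in the same 6, with 0.75 ± 0.11 at 12 months (adjusted p = 1.9e-06). Its 6-month call with Nlrp3 present was lost on leaving out WT replicates 17 or 18 or APP/PS1 replicates 23 or 24. Of the regulators, Hif1a, the oxygen-regulated factor whose known targets include Hilpda, was called in the same 6 and went from 251 ± 20.9 to 1060 ± 212 CPM at 12 months (2.09 ± 0.23, adjusted p = 1.1e-08). Of the genes that make fatty acyl-CoA, Acsl5 was 0.38 ± 0.08 higher (adjusted p = 0.00058).

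Among the synthesis genes outside the members, Lpin1, the phosphatidate phosphatase that supplies diacylglycerol to the DGAT enzymes, was lower in APP/PS1.NLRP3-/- than in APP/PS1 at 12 months, at 33.6 ± 1.80 CPM (SD, n = 4) against 83.3 ± 17.7 CPM (n = 5), a log2 difference of -1.32 ± 0.19 (adjusted p = 1.7e-05). It was called lower in the same pair at 6 months (-1.0 ± 0.20, adjusted p = 0.00508), a call that ended without APP/PS1 replicate 22 (0.0782). Sex and Nlrp3 state coincide in this pair at 12 months, and at 6 months its only males are APP/PS1.NLRP3-/- libraries. In the Mxo4 set, with both sexes in each group, Lpin1 was also called lower (-0.91 ± 0.22, adjusted p = 0.0483). There all APP/PS1.NLRP3-/- libraries carry second title number 2 and all APP/PS1 libraries but replicate 56 number 1. Gpam, which adds the first acyl chain to glycerol phosphate, was also called lower in that pair at 6 months (-0.59 ± 0.15, adjusted p = 0.0488), and its adjusted p was between 0.052 and 0.428 without any 1 of APP/PS1 replicates 21, 22 and 23 or APP/PS1.NLRP3-/- replicates 25, 28, 29, 30 and 31. Dgat1 and Dgat2, which act after Lpin1, were not called in any of these comparisons. At 4 months, where all libraries were female, Lpin1 was lower without Nlrp3 without overlap, though not called. It was at 55.9 to 69.6 against 84 to 110 CPM with the transgenes and 43.2 to 72.8 against 75.4 to 96.7 CPM without them. Without transgenes it was at 49.4 to 74.9 against 94.3 to 98.3 CPM at 12 months, where sex again coincides. At 6 months and with Mxo4 the ranges without transgenes overlapped.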

How the data were processed

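RNA was sequenced from CD11b+ brain cells of 62 samples, with SMART-Seq v4 libraries made in 2 batches, per the labels' protocols. Reads were processed with Trimmomatic, TopHat and HTSeq on mm10, per the submitters' processing notes, and the versions are not given in the sources used here. The authors deposited raw counts per gene, with no normalization. Identifiers were matched to GENCODE vM21 symbols (53620 of 53801).

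All 62 libraries entered 1 fit (edgeR 4.0.16 with limma 3.58.1, R 4.3.3): TMM factors, filterByExpr with a minimum count of 10 and total of 15, 1 term per group and 1 for the second title number, quasi-likelihood F test, two-sided, Benjamini-Hochberg over 19865 genes, called at an adjusted p under 0.05. Standard errors are the log2 difference over the square root of F. The code was tested on simulated data. Of the 28 comparisons, 24 set 1 group against another and 4 are interactions. Levels are CPM over 61 libraries, without the library of 659 counts. Sex was read from Xist (at least 100 CPM) or 4 Y-linked genes (at least 50 CPM summed). Total counts set the precision of low values, and intervals cover counting error only.

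All 10 genes were named in each comparison, with at most 2 further called genes per lipid list and comparison, and the 3 genes most alike in Pearson correlation of log2(CPM + 1) group means among those with a mean of 5 CPM or more. The genes and lists were chosen with earlier results of these data known. Alternatives were other size factors, no filter, DESeq2 1.42.0, other covariates, shallow libraries left out, separate fits and single libraries left out. Figures were drawn with matplotlib 3.10.9.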

Additional observations from a re-analysis of the deposited data

Results flagged for a closer look

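In 8 of 100 sets of 1 gene in 1 group of 4 or 5 libraries, the highest or lowest library stood farther from the others than Dixon's 95% critical value allows, where chance alone gives about 1 in 20. The 8 came from 8 different libraries.

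Soat1 was at 92.5 CPM in the library labelled APP/PS1 with Mxo4 replicate 56, against 230 to 244 CPM in the other 3. Dgat2 was at 13.5 CPM in APP/PS1 at 12 months replicate 38, against 5.27 to 6.42 CPM in the other 4. Hilpda was at 2.18 CPM (3 counts) in the shallow NLRP3-/- replicate 45 at 12 months, against 9.18 to 9.45 CPM, and at 6.49 CPM in NLRP3-/- replicate 26 at 6 months, against 9.23 to 9.79 CPM.

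Cd36 was at 38.1 CPM in WT replicate 7 at 4 months, against 27.2 to 28.7 CPM, and at 21.9 CPM in NLRP3-/- replicate 33 at 6 months, against 15.9 to 16.6 CPM. Among the coat genes, Plin2 was at 68.5 CPM in NLRP3-/- replicate 10 at 4 months, against 57.9 to 58.2 CPM, and Plin3 at 11.8 CPM in replicate 8 of the same group, against 16.2 to 16.6 CPM.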

How the results depend on the processing

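No paired analysis was possible because replicate numbers are unique over the series. RLE size factors and DESeq2 were run only with libraries under 100000 counts left out, a choice made after seeing the data. Of 10 member genes, the number called moved as follows. In APP/PS1 minus WT at 6 months 4 became 1 with the first title number as a term and 1 within second title number 1, and 2 to 4 with single libraries left out. At 12 months 7 became 4 within number 1, and without Nlrp3 5 became 2 within number 2. In the Mxo4 set 4 became 0 within number 2 and 0 with only the compared groups in the fit, and 3 to 7 with single libraries left out, where 7 is without replicate 56. For APP/PS1.NLRP3-/- minus APP/PS1 at 12 months 2 became 0 with a sex term, 0 within number 1, 5 within number 2 and 1 with only the compared groups, and 1 to 3 with single libraries left out. In the Mxo4 set the number called for that pair and its interaction also moved within number 2, where replicate 56 is the lone APP/PS1 library. The pair also moved with only the compared groups in the fit, which is the same contrast. There the other APP/PS1 libraries, all of number 1, inform only the term for that number, so the difference again rests on replicate 56. Fabp5 differed by 4.58 in both of these fits of the pair. For 12 minus 4 months, NLRP3-/- went from 0 to 1 without replicate 8 (0 to 1 over single libraries), and APP/PS1.NLRP3-/- from 7 to 4 with the first title number and 3 within number 1, and 4 to 6 over single libraries. For Mxo4 minus untagged, NLRP3-/- went from 0 to 1 with no filter, no second-number term, libraries under 10000000 counts left out, a sex term or DESeq2 (0 to 1 over single libraries, 1 without replicate 42 or 45), and APP/PS1 from 3 to 0 with no filter, the first title number, libraries under 10000000 left out, a sex term, number 1 alone or only the compared groups, to 8 within number 2, and to 0 to 4 over single libraries. Replicate 56 is the lone APP/PS1 library with Mxo4 of number 2, so each count for that group within number 2 rests on it. The causes were not tested.

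Over single genes, 12 differences reversed. Within number 2 alone, APP/PS1 minus WT with Mxo4 was -0.21 for Plin2, -0.70 for Fabp3, -0.66 for Soat1, -0.0205 for Acsl5, -0.45 for Nceh1, -0.24 for Lipa, -0.21 for Hif1a and 0.0196 for Acads, all resting on replicate 56. Fabp3 in APP/PS1.NLRP3-/- minus APP/PS1 with Mxo4 was 4.14 within number 2 and 4.14 with only the compared groups, both again resting on replicate 56. Within number 2, Fabp4 in APP/PS1.NLRP3-/- minus APP/PS1 at 12 months was 1.08 and Acaa2 in APP/PS1.NLRP3-/- minus NLRP3-/- at 12 months 0.12. Of the other differences 6440 kept direction and side of the threshold, 458 lost it and 46 gained it. Depth limits Fabp3 and Hilpda in NLRP3-/- replicate 45, and the 3 to 5 libraries per group limit every call.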
